A study of Mus musculus with 11 samples.

Results

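The simple-epithelial keratins Krt7, Krt8, Krt18, Krt19, Krt20 and Krt23 and 4 genes used as signs of bile duct identity, Sox9, Epcam, Spp1 and Dcdc2a, were followed across the AML12 libraries. These 10 of the 24849 genes of the table were chosen by name with earlier results of the same libraries in view, so their values are a description and carry no test. Counts were found for 9 of them, as Epcam had 0 counts in all 11 libraries. Krt23 had at most 8 counts in a library, and the other 8 passed the filter on low counts in every comparison.

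AML12 is a line of mouse hepatocytes. Polyadenylated RNA was sequenced from 4 KO, 3 WT and 4 KI-labelled libraries, and the number of reads on each gene was deposited without normalization. The KO cells are stable puromycin-resistant clones in which Txndc5, a disulfide isomerase of the endoplasmic reticulum, was cut by CRISPR/Cas9, although the labels name their genotype a knockdown. The KI cells are labelled as a knock-in, with TXNDC5 overexpressed from the ROSA26 locus. How many clones were pooled for the KO or KI-labelled libraries is not given in the sources used here. Apart from the transfection and repeated puromycin incubations described for the KO cells, no treatment or time is given that separates the groups. One WT library is numbered 5-6, and whether it pools 2 cultures is not given either. Nothing in the labels says that the numbered replicates came from separate cultures, so p-values measure only the spread between these samples, which may be technical.

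For Txndc5, which was targeted, the 4 KO libraries held 364, 287, 430 and 408 counts, whereas the 3 WT libraries held 3299, 3429 and 4046. Its log2 fold change in the KO against the WT was -3.82 (SE 0.15, adjusted p = 4.09e-08 by Benjamini-Hochberg, quasi-likelihood test of edgeR). The KI-labelled libraries held 5654, 6511, 6723 and 5344 counts. In CPM (read counts scaled to library size, with TMM factors set over all 11 libraries) their level was 169 ± 10.3 (SD, n = 4), against 143 ± 4.37 in the WT (SD, n = 3). All KI-labelled libraries, from 158 to 179.5 CPM, lay above all WT libraries, from 138 to 147 CPM. The difference between these groups had a log2 value of 0.24 (SE 0.12, adjusted p = 0.136, the same test). Because an overexpression was not detected by this test, these libraries are named by their label throughout. In each comparison, a log2 fold change, a rise or a fall is that of the group named first relative to the group named second.

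Total counts per library lay between 29840366 and 38422243. A single newly assembled entry took 11.3 to 17.1% of the WT counts, against 4.32 to 6.44% in the KO and 4.82 to 9.12% in the KI-labelled libraries, and the scaling therefore bears on small differences. When libraries were scaled by their totals alone, the median over all genes went from -0.03 to 0.38 on the log2 scale for the KO against the WT and from -0.02 to 0.31 for the KI-labelled libraries against the WT. The share of calls that were higher moved from 48.5 to 72.8% and from 50.2 to 76.3%. Between the KO and the KI-labelled libraries the median went only from 0.00 to 0.06.

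Keratins are the intermediate filament proteins of epithelia, and a filament needs a type II chain (here Krt7 and Krt8) paired with a type I chain (Krt18, Krt19, Krt20 and Krt23). Adult hepatocytes are known for the pair Krt8 and Krt18 alone, whereas bile duct cells add Krt7 and Krt19. Sox9 is a transcription factor of duct cells and liver progenitors, Epcam a surface adhesion protein of the same cells, Spp1 the secreted integrin ligand osteopontin, and Dcdc2a a microtubule-binding protein of the primary cilium.

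Krt7, Krt20, Spp1 and Dcdc2a were lower in every KO library than in any other, and the 250 bases before their transcription starts are shown because these 4 genes moved together. RefSeq (GRCm38.p6) gave such a sequence for 8 of the 10 genes, and Krt19 and Sox9 are named only. Each is printed 5′ to 3′ on the strand of the gene and ends at the base before the start. The positions are chr15:101412153-101412402 for Krt7 (plus strand), chr11:99438154-99438403 for Krt20 (minus strand), chr5:104434861-104435110 for the first of the listed Spp1 starts (plus strand) and chr13:25055754-25056003 for Dcdc2a (plus strand). Capitals mark matches, on either strand, to 7 motifs given by their letters. These are the TATA box TATAAA, the AP-1 site TGANTCA, the GC box GGGCGG and the partial HNF1 site GTTAAT. The others are the TEAD site CATTCC, the SOX site ACAATG and the RBPJ site TGGGAA. The letters GTTAAT are only a part of a full HNF1 site.
Krt7: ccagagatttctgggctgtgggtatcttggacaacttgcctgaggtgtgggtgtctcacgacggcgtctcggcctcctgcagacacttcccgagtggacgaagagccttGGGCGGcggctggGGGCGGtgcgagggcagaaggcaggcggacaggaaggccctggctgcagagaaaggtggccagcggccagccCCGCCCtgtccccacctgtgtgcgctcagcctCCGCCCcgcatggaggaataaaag
Krt20: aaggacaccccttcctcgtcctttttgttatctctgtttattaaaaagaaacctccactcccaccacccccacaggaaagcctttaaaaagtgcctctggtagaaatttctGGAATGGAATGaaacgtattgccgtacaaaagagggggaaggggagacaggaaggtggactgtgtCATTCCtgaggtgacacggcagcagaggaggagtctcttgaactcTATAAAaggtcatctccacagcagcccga
Spp1: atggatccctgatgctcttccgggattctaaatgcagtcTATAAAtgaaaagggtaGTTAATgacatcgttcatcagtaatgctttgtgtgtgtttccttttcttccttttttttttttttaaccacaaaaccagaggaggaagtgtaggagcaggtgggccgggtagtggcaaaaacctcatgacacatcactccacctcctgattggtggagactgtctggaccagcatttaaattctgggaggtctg
Dcdc2a: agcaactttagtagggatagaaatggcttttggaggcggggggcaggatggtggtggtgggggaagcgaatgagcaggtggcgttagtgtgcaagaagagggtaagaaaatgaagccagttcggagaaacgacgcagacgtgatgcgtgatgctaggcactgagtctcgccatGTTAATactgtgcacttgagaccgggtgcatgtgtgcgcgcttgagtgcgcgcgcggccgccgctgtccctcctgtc

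The 4 windows shared few matches. Krt7 held 4 GC boxes, which begin 141, 128, 56 and 24 bases before the start, and 32.7% of the 32851 promoter windows of the same length in the RefSeq table held at least 1. Krt20 held a TATA box 29 bases before the start, present in 12.4% of all windows, and 3 TEAD matches at 139, 134 and 74 bases, of which the first and the second overlap by 1 base (a TEAD match was found in 12.6% of all windows). Spp1 held a TATA box match at 211 and a partial HNF1 site at 194 bases. Dcdc2a held a partial HNF1 site at 77 bases, a match found in 6.43% of all windows. AP-1, SOX and RBPJ letters were in none of the 4 windows, against 6.75, 10.7 and 21.6% of all. Among the other windows, Krt8 held an RBPJ match at 134 bases, Krt23 a SOX match at 90 bases and Epcam a GC box at 58 bases, while Krt18 and the second start of Spp1 held none of the 7 motifs. A match is a run of letters and says nothing of binding.

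Among the type II keratins, Krt7 of duct-type epithelia was low in the KO. The counts were 649, 588, 576 and 655 in the KO, 4223, 4120 and 5014 in the WT and 4208, 4765, 4358 and 3528 in the KI-labelled libraries. All KO libraries lay far below all others. The level in CPM was 17 ± 1.34 in the KO (SD, n = 4), 177 ± 11 in the WT (SD, n = 3) and 118 ± 10.2 in the KI-labelled libraries (SD, n = 4). The highest KI-labelled library, at 131 CPM, was below the lowest WT library, at 166 CPM. Against the WT, the log2 fold change of the KO was -3.40 (SE 0.12), a 10.6-fold difference. It was -0.59 (SE 0.13) in the KI-labelled libraries against the WT, but -0.26 with library totals, and -2.79 (SE 0.10) in the KO against the KI-labelled libraries. In bulk RNA, fewer cells that express a gene and less RNA of it per cell cannot be told apart, here and for each gene that follows.

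Krt8, the type II keratin of every simple epithelium, did not follow Krt7. The counts were 110930, 87944, 84825 and 103358 in the KO, 75309, 67692 and 68553 in the WT and 160218, 170526, 147930 and 144001 in the KI-labelled libraries. In CPM the KO libraries, from 2378 to 3110.3, overlapped the WT libraries, from 2427 to 3357, and all KI-labelled libraries, from 3866 to 4701, were above both. The log2 fold change in the KO against the WT was -0.11 (SE 0.17) and turned to 0.31 with library totals, so no direction can be read. It was 0.62 (SE 0.18) in the KI-labelled libraries against the WT, and -0.71 (SE 0.11) in the KO against the KI-labelled libraries. Krt8 shares bases of its exons with the antisense lincRNA Gm36026, and the library protocol names no strand step, so reads of these genes cannot be told apart.

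Krt18, the type I partner of Krt8, showed a like pattern, with its highest levels in KI-labelled libraries. It had 36677, 33599, 30344 and 40803 counts in the KO, 28873, 19749 and 27864 in the WT and 73999, 79555, 73345 and 40482 in the KI-labelled libraries. Its level was 968 ± 53.3 CPM in the KO (SD, n = 4), 1024 ± 247 in the WT (SD, n = 3) and 1853 ± 429.6 in the KI-labelled libraries (SD, n = 4). The last SD rests on KI 8, which at 1231 CPM lay below the highest WT library (1287 CPM), while the other KI-labelled libraries had 1917 to 2193 CPM. Without KI 8 the mean was 2060.0 ± 138 CPM (SD, n = 3). Its log2 fold change was 0.86 (SE 0.22) in the KI-labelled libraries against the WT and -0.93 (SE 0.14) in the KO against the KI-labelled libraries. The KO differed from the WT by -0.10 (SE 0.17), and by 0.32 with library totals.

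Krt19, the type I keratin of bile ducts, was the member with the opposite order, highest in the KO. The counts were 41921, 34953, 36709 and 46809 in the KO, 19344, 16176 and 22429 in the WT and 28591, 29254, 31248 and 18588 in the KI-labelled libraries. All KO libraries, from 1035 to 1175 CPM, were above all others, while the WT libraries, from 653 to 862 CPM, and the KI-labelled libraries, from 565 to 817 CPM, overlapped. Krt19 had a log2 fold change of 0.49 (SE 0.14) in the KO against the WT, 0.90 with library totals, and 0.56 (SE 0.11) in the KO against the KI-labelled libraries. Between the KI-labelled libraries and the WT it was -0.04 (SE 0.17), and 0.29 with library totals.

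Krt20, a type I keratin best known from intestinal and urothelial cells, was low in the KO. The KO libraries held 2306, 2037, 2428 and 2824 counts, the WT libraries 5350, 5184 and 5708, and the KI-labelled libraries 10147, 10228, 8853 and 7790. Its level was 65.7 ± 5.22 CPM in the KO (SD, n = 4), 217 ± 19.3 in the WT (SD, n = 3) and 259 ± 28.2 in the KI-labelled libraries (SD, n = 4). Krt20 had a log2 fold change of -1.74 (SE 0.12) in the KO against the WT and -1.97 (SE 0.10) against the KI-labelled libraries, with no overlap in either. The KI-labelled libraries differed from the WT by 0.26 (SE 0.14), and by 0.59 with library totals, and the libraries overlapped. Krt23, a type I keratin of stressed liver, had 0 counts in all KO libraries, 6, 0 and 6 in the WT and 8, 6, 5 and 4 in the KI-labelled libraries, which is too near the floor of 3 counts for a fold.

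Spp1 was represented by 10072, 8535, 7886 and 9176 counts in the KO, 73758, 57687 and 54934 in the WT and 70518, 76696, 70803 and 62306 in the KI-labelled libraries. It was thus among the more abundant of these RNAs in the WT and the KI-labelled libraries and far lower in each KO library. Its level was 246 ± 29.8 CPM in the KO (SD, n = 4), 2520.3 ± 692 in the WT (SD, n = 3) and 1958 ± 116 in the KI-labelled libraries (SD, n = 4). It showed a log2 fold change of -3.38 (SE 0.20) in the KO against the WT, a 10.4-fold difference, and -2.99 (SE 0.11) against the KI-labelled libraries. Between the KI-labelled libraries and the WT it was -0.36 (SE 0.19), the libraries overlapped, and library totals gave -0.01. Spp1 shares exon bases with Gm42793, an unconfirmed gene model on the same strand, which the counting could have split.

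Dcdc2a had the largest difference of the members. The counts were 10, 15, 14 and 15 in the KO, 972, 927 and 859 in the WT and 757, 739, 894 and 719 in the KI-labelled libraries. The groups did not overlap in any pair, with 0.28 to 0.444 CPM in the KO, 30.4 to 43.3 in the WT and 20.4 to 23.4 in the KI-labelled libraries. Its log2 fold change was -6.65 (SE 0.22) in the KO against the WT, a 100.3-fold difference, -5.86 (SE 0.18) against the KI-labelled libraries, and -0.77 (SE 0.15) in the KI-labelled libraries against the WT, for which library totals gave -0.42. The KO level rests on few counts but was above the floor of 3 counts in each library.

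Sox9 and Epcam bear most directly on a duct identity. Sox9 had 984, 1146, 1238 and 1644 counts in the KO, 905, 1042 and 1615 in the WT and 1202, 1114, 1651 and 1218 in the KI-labelled libraries. The KO libraries (27.6 to 37.8 CPM) lay just below the WT libraries (40.3 to 57.2 CPM), and the KI-labelled libraries (30.7 to 43.2 CPM) overlapped both. The log2 fold change in the KO against the WT was -0.47 (SE 0.16), but -0.07 with library totals and -0.26 without WT 8. It was -0.37 (SE 0.17) in the KI-labelled libraries against the WT, but -0.05 with library totals and -0.19 without WT 8, and -0.08 (SE 0.13) in the KO against the KI-labelled libraries. Epcam was at 0 counts in all 11 libraries, which allows at most 3 counts per library, or 0.083, 0.12 and 0.0841 CPM on average in the KO, WT and KI-labelled libraries. These limits cover counting error only. Of the genes that stand for a duct identity here, Epcam was thus not detected at this depth.

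**Figure D1:**
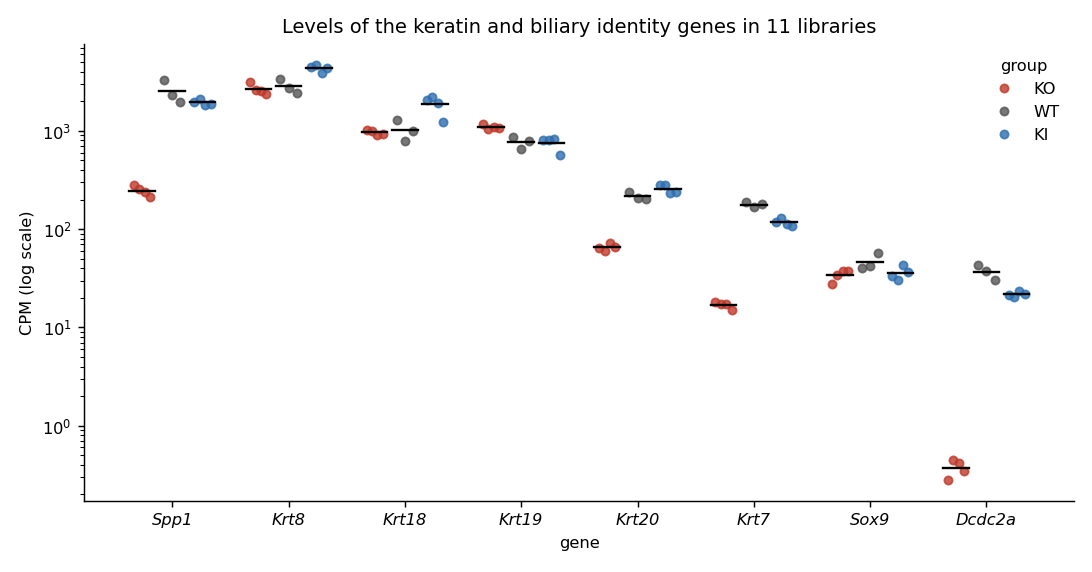
Level of 8 genes in each of the 11 libraries, in CPM on a log scale, with a dot for each library of the KO, WT and KI-labelled groups and a black bar at the group mean. The KO dots of Spp1, Krt20, Krt7 and Dcdc2a lie below all others, those of Krt19 lie above, and KI 8 is the low KI dot of Krt18 (1231 CPM) and Krt19 (565 CPM); Krt23 and Epcam, at or near 0, are not drawn.

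Of the 8 genes that passed the filter, 6 did not overlap between the KO and the WT libraries (1 higher, 5 lower), where 55.3% of the 13359 genes tested did not overlap. Between the KI-labelled libraries and the WT it was 3 (1 higher, 2 lower), where 44.7% of the 13534 genes tested did not overlap. Between the KO and the KI-labelled libraries it was 7 (1 higher, 6 lower), where 48.6% of the 13269 genes tested did not overlap. Nothing is read from these counts, since the genes were selected on the same libraries and the comparisons share groups. The medians of whole chromosomes are given for scale. On chromosome 15, which carries Krt7, Krt8 and Krt18, the median log2 fold change in the KO against the WT was 0.07 over 466 genes. Chromosome 11, with Krt19, Krt20, Krt23 and Sox9, had a median of -0.34 over 1009 genes. Of these members, Sox9 had -0.47, Krt19 0.49 and Krt20 -1.74. Spp1 on chromosome 5 stood beside a median of 0.01 over 767 genes and Dcdc2a on chromosome 13 beside a median of -0.22 over 439 genes.

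**Figure D2:**
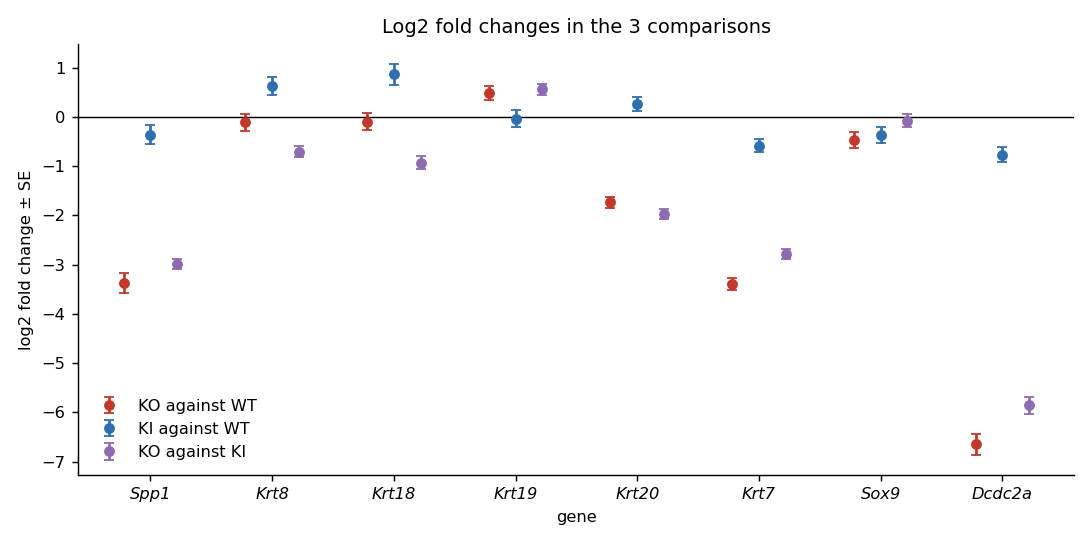
Log2 fold change of 8 genes in the KO against the WT (red), the KI-labelled libraries against the WT (blue) and the KO against the KI-labelled libraries (purple), with standard errors as bars. For the KO against the WT the values run from -6.65 for Dcdc2a to 0.49 for Krt19, whereas for the KI-labelled libraries against the WT they stay between -0.77 and 0.86.

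Levels of different genes were compared only as CPM per kb of coding length. In the WT the order was Spp1 (2857 ± 785, SD, n = 3), Krt8 (1931 ± 323), Krt18 (807 ± 195), Krt19 (637 ± 88.5), Krt20 (168 ± 14.9), Krt7 (129 ± 8.04), Sox9 (30.6 ± 6.09) and Dcdc2a (26 ± 4.54). Neighbours whose libraries overlapped in this order were Spp1 and Krt8, Krt18 and Krt19, and Sox9 and Dcdc2a. In the KO, Krt8 came first (1809 ± 215, SD, n = 4), followed by Krt19 (908 ± 48.7), Krt18 (763 ± 42), Spp1 (279 ± 33.8), Krt20 (50.8 ± 4.04), Sox9 (22.4 ± 3.07), Krt7 (12.4 ± 0.978) and Dcdc2a (0.261 ± 0.0523), and no neighbours overlapped. In the KI-labelled libraries, Krt8 (2964 ± 241, SD, n = 4) was followed by Spp1 (2220.0 ± 131), Krt18 (1460.0 ± 339), Krt19 (618 ± 100.4), Krt20 (199.9 ± 21.8), Krt7 (85.8 ± 7.41), Sox9 (23.8 ± 3.52) and Dcdc2a (15.2 ± 0.891), again with no overlap of neighbours. Krt19 thus stood above Krt18 only in the KO of the 3 groups.

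The make-up of the keratin RNA differed between the groups, and these shares do not depend on the scaling between libraries. Of the type I keratin RNA per kb of coding length, Krt19 made up 52.7 ± 1.4% in the KO (SD, n = 4), 39.7 ± 2.13% in the WT (SD, n = 3) and 27.3 ± 1.64% in the KI-labelled libraries (SD, n = 4), with no overlap. Krt18 made up 44.3 ± 1.61% in the KO (SD, n = 4), 49.7 ± 3% in the WT (SD, n = 3) and 63.7 ± 2.72% in the KI-labelled libraries (SD, n = 4), also with no overlap. The ratio of Krt18 to Krt19 was between 0.788 and 0.916 in the KO, 1.16 and 1.42 in the WT and 2.07 and 2.59 in the KI-labelled libraries. Krt20 made up 2.73 to 3.34% in the KO, 9.65 to 12.2% in the WT and 7.57 to 11.3% in the KI-labelled libraries, of which the last overlapped the WT. Among the type II keratins, the share of Krt7 was 0.683 ± 0.0448% in the KO (SD, n = 4), 6.36 ± 0.825% in the WT (SD, n = 3) and 2.82 ± 0.217% in the KI-labelled libraries (SD, n = 4). The balance between the types moved less. The ratio of type II to type I RNA was 1.06 ± 0.08 in the KO (SD, n = 4), 1.29 ± 0.186 in the WT (SD, n = 3) and 1.39 ± 0.338 in the KI-labelled libraries (SD, n = 4), and the ratio of Krt8 to Krt18 was 2.37 ± 0.188, 2.44 ± 0.45 and 2.13 ± 0.628. KI 8 stood apart in both ratios, with 1.89 and 3.07, and without it the KI-labelled means were 1.22 ± 0.062 and 1.82 ± 0.0691 (SD, n = 3).

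**Figure D3:**
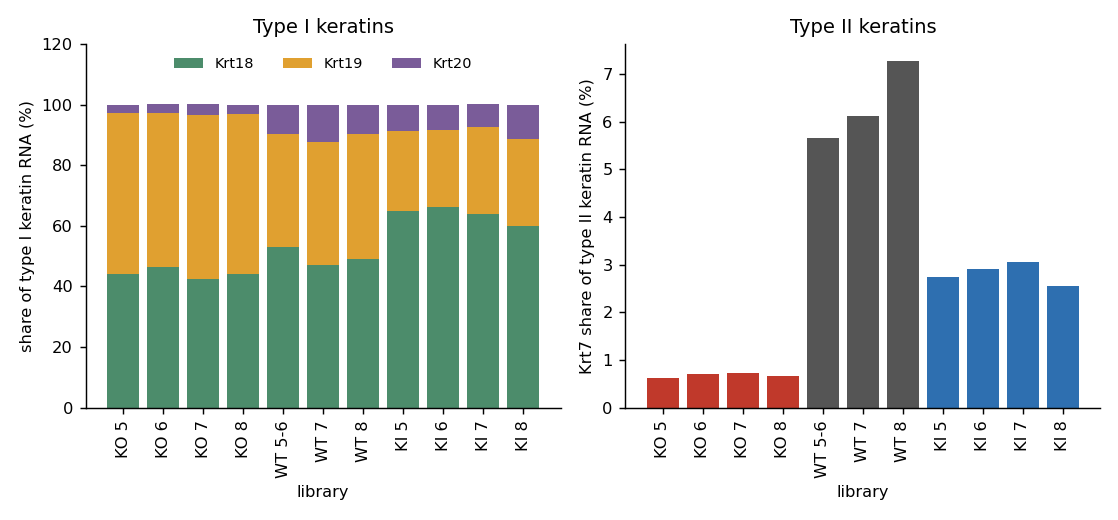
Make-up of the keratin RNA per kb of coding length in each library, with the shares of Krt18, Krt19 and Krt20 in the type I keratins (left, stacked bars, in percent) and the share of Krt7 in the type II keratins (right, in percent, KO in red, WT in grey and KI-labelled in blue). Krt19 takes 50.8 to 54.1% of the type I RNA in the KO, 37.3 to 41.3% in the WT and 25.5 to 28.8% in the KI-labelled libraries, and Krt7 is under 1% of the type II RNA in the KO libraries.

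Across the 11 libraries, the log2 CPM of Krt7, Spp1 and Dcdc2a followed each other with Pearson's r of 0.99 for each pair, and Krt20 followed them with r of 0.96 to 0.97. Krt8 and Krt18 had r = 0.87, and Krt19 ran against Krt7, Krt20, Spp1 and Dcdc2a with r from -0.84 to -0.80. These values describe the differences between the groups, which all libraries share, and the genes that followed a member most closely were many. Over 0.9 were 799 genes for Krt7, 684 for Krt20, 810 for Spp1 and 778 for Dcdc2a, but 131 for Krt8, 69 for Krt18, 71 for Krt19 and 14 for Sox9. The closest annotated genes were Pea15a (r = 0.998) and Hebp2 (0.997) for Krt7, Cndp2 (0.998) and Upp1 (0.996) for Spp1, and Chic1 (0.997), Flt1 (0.996) and Socs2 (0.996) for Dcdc2a, with a newly assembled entry as the third for Krt7 and Spp1. For Krt20 they were Cpe (0.995), Dact2 (0.992) and the targeted Txndc5 itself (0.992). Krt8 had Ykt6 (0.981), Fam118b (0.978) and Tspan3 (0.971) as its closest genes, Krt18 had Ywhaq (0.991), Nup88 (0.978) and Eno1 (0.968), Krt19 had Spats2l (0.977), Slc52a3 (0.963) and Sod1 (0.961), and Sox9 had Gse1 (0.960), Ralgapa2 (0.947) and Plekhm1 (0.947).

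The libraries were also set against markers of the cell types they could hold. Of 12 hepatocyte markers, 11 were analysed, and Cyp2e1 was at 0 counts in every library. The summed hepatocyte marker level was 5133 to 6311 CPM in the KO, above 1579 to 2278 CPM in the WT and 1648 to 2232 CPM in the KI-labelled libraries. Most of this difference was in Alb, the plasma albumin. Without Alb the other 10 summed to 1425 to 1578 CPM in the KO, 1153 to 1539 CPM in the WT and 1488 to 1931 CPM in the KI-labelled libraries, and the groups overlapped. The largest parts of this sum were Apob, with a mean of 642 CPM in the KO against 401 in the WT, and Ttr, with 438 against 826. As these moved in opposite directions, the sum does not show how each marker moved. Of 10 hepatocyte markers that passed the filter in the KO against the WT, 7 rose and 3 fell, where 26.7% of all genes tested rose and 28.4% fell. Apoa1 rose by 3.82 on the log2 scale (SE 0.26, adjusted p = 1.11e-06, edgeR) and Apob by 0.66 (SE 0.15, adjusted p = 0.00286). Ahsg had at most 2 counts in a WT library and at least 146 in a KO library, and Cps1 at most 16 and at least 66. Ahsg and Cps1 passed the filter only through the KO. Alb rose in the KO against the WT by a log2 fold change of 2.99 (SE 0.26, adjusted p = 5.68e-06, edgeR), Hnf4a, a hepatocyte transcription factor, by 1.35 (SE 0.17, adjusted p = 6.30e-05), and Cebpa, another, by 1.70 (SE 0.15, adjusted p = 7.44e-06), whereas Ttr, which carries thyroxine, fell by 0.93 (SE 0.18, adjusted p = 0.00139) and Fgb, the fibrinogen beta chain, by 1.04 (SE 0.26, adjusted p = 0.00583). The third that fell was Asgr1, a receptor for asialoglycoproteins, with 10 counts in each WT library and 0 in all KO libraries (adjusted p = 0.00319). Asgr1 passed the filter only through the WT. The part of these markers in the levels of the keratins and biliary genes was not tested. The markers listed for other cell types were scarce. The 8 mesenchymal markers summed to at most 1.86 CPM and the 5 endothelial ones to at most 0.425 CPM in any library. Vim, a filament gene often read as mesenchymal, was not among these 8 and is named after its values were seen. Its means were 1223 CPM in the KO, 771 in the WT and 746 in the KI-labelled libraries. In the KO against the WT it rose by 0.65 on the log2 scale (SE 0.14, adjusted p = 0.00285, edgeR). The 5 leukocyte markers summed to 1.95 to 2.69 CPM in the KO, 6.73 to 9.56 CPM in the WT and 3.24 to 6.66 CPM in the KI-labelled libraries, with Adgre1 at 0 throughout. The 6 squamous markers summed to 1.52 to 2.52 CPM in the KO, 4.67 to 10.1 CPM in the WT and 4.91 to 7.47 CPM in the KI-labelled libraries, with Krt5 at 0 throughout. Of these, Ivl had a mean of 0.0372 CPM in the KO, 4.29 in the WT and 4.07 in the KI-labelled libraries, and Krt10 had 1.74, 3.62 and 2.44. Means of Krt14, Krt1 and Trp63 were at most 0.0814 CPM in any group.

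The remaining keratins of the mouse were nearly silent. Of 47 other keratin genes, 32 had 0 counts in all libraries, among them the squamous Krt5, and 15 had any counts. Between the KO and the WT, 2 passed the filter and both fell, where 28.4% of all genes tested fell and 26.7% rose. Krt80 had 11.7 ± 0.862 CPM in the WT (SD, n = 3) and 7.19 ± 1.33 CPM in the KO (SD, n = 4; log2 fold change -0.72, SE 0.18, adjusted p = 0.00659, edgeR), and Krt10 had 3.62 ± 1.55 and 1.74 ± 0.458 CPM (-1.08, SE 0.36, adjusted p = 0.0267). Library totals called 0 of the 2. The call of Krt10 was lost without KO 5, KO 6, KO 8, WT 5-6 or WT 7, with an adjusted p of 0.0555 to 0.135. The count of calls was 1 without KO 5, KO 6, KO 8 or WT 7 and 4 without WT 5-6. Between the KI-labelled libraries and the WT, 5 passed the filter and 0 were called by edgeR, by an unadjusted p under 0.05 or by DESeq2, while library totals and leaving out WT 8 each called 1. Of the 3 tested between the KO and the KI-labelled libraries, 2 fell, Krt80 (-0.97, SE 0.16, adjusted p = 1.14e-04) and Krt12, a keratin of the cornea, where 27.0% of all genes tested fell. Krt12 had 6, 0, 0 and 0 counts in the KO and 15, 21, 20 and 27 in the KI-labelled libraries, so it passed the filter only through the latter and no fold is given. It lies outside the naming rule for its low counts and was named after its values were seen.

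Of 30 other genes of bile ducts, 23 passed the filter, and in the KO against the WT 12 fell and 3 rose (52.2% and 13%, beside 28.4% and 26.7% of all genes tested), with a median log2 fold change of -0.45 (all genes: -0.03). Library totals gave 9 lower and 4 higher. Among the called genes with a mean log2 CPM of at least 1, those with the largest changes were Mmp7, a matrix protease secreted by injured duct cells, Slc10a2, the apical bile acid transporter, Clu, the chaperone clusterin, and Aqp1, a water channel of cholangiocytes. Mmp7 fell from 878, 891 and 636 counts in the WT to 3, 9, 0 and 2 in the KO (adjusted p = 2.43e-07, edgeR), and no fold is given, since the KO counts lie around the floor. Slc10a2 fell by 2.70 on the log2 scale (SE 0.22, adjusted p = 4.57e-06) and Clu by 1.61 (SE 0.16, adjusted p = 1.78e-05), while Aqp1 rose from 10, 3 and 18 counts in the WT to 301, 216, 263 and 269 in the KO (adjusted p = 1.15e-05). Among those that fell, Mmp7, Onecut1, Muc1 and Ggt1 passed the filter only through the WT, and among those that rose, Aqp1 only through the KO. Such genes could hardly be called in the other direction, and the shares above include them. Onecut1, Muc1 and Ggt1 lie below the level of the naming rule and are named for this reason only. Cldn4, a tight junction protein, was at 0 counts in all libraries, and Cftr, the chloride channel of duct cells, had at most 26.

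Among the 23 bile duct genes, 5 fell in the KI-labelled libraries against the WT and 3 rose, where 21.0% of all genes tested fell and 21.2% rose. The median log2 fold change was -0.28 (all genes: -0.02). Mmp7 fell here too, by 2.58 on the log2 scale (SE 0.22, adjusted p = 3.82e-06, edgeR), as did Slc10a2, by 1.10 (SE 0.19, adjusted p = 6.45e-04), and Tspan8, a tetraspanin of secretory epithelia, by 0.98 (SE 0.22, adjusted p = 0.00338). Slc4a2, the anion exchanger that releases bicarbonate into bile, rose from 58.1 ± 12.2 CPM (SD, n = 3) to 109.9 ± 6.69 (SD, n = 4), by 0.92 (SE 0.15, adjusted p = 5.34e-04). Between the KO and the KI-labelled libraries, 10 fell and 5 rose, where 27.0% of all genes tested fell and 27.0% rose. Mmp7, with 170, 169, 201 and 236 counts in the KI-labelled libraries, was lower in the KO (adjusted p = 1.23e-07), and Aqp1, with 13, 6, 4 and 0 counts there, was higher (adjusted p = 5.44e-08). In this comparison Mmp7, Onecut1 and Ggt1 passed the filter only through the KI-labelled libraries, and Aqp1 only through the KO. Slc10a2 differed by -1.57 (SE 0.16, adjusted p = 1.19e-06) and Clu by -1.17 (SE 0.08, adjusted p = 2.19e-08).

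The Notch pathway, in which Jag1 and Jag2 on a neighbouring cell release the Notch receptors to act with Rbpj on Sox9 and other genes in developing ducts, was followed with 25 genes, of which 20 passed the filter. The KO against the WT had 5 that rose and 3 that fell (25% and 15%, against 26.7% and 28.4% of all genes tested), and library totals gave 7 and 2. Without WT 7 the calls were 4. The receptor Notch1 rose from 54.1 ± 11.5 CPM (SD, n = 3) to 117 ± 19.2 (SD, n = 4; log2 fold change 1.09, SE 0.18, adjusted p = 3.92e-04, edgeR), the feedback inhibitor Nrarp by 1.52 (SE 0.26, adjusted p = 5.98e-04) and the sugar transferase Rfng by 1.07 (SE 0.24, adjusted p = 0.00301), and the ligand Jag2 fell by 1.82 (SE 0.14, adjusted p = 3.10e-06). For the KI-labelled libraries against the WT 3 rose and 2 fell (15% and 10%, against 21.2% and 21.0% of all genes), with 4 and 0 by library totals and 3 calls without KI 5, KI 6 or KI 8. Rbpj rose by 0.87 (SE 0.19, adjusted p = 0.00342), its coactivator Maml2 by 0.87 (SE 0.22, adjusted p = 0.00712), and Jag2 fell by 0.83 (SE 0.16, adjusted p = 0.00115, but 0.0596 with library totals). Maml3, another coactivator, fell by 0.62 (SE 0.22, adjusted p = 0.0351), a call lost with library totals (adjusted p = 0.349) and without any of 5 single libraries, WT 5-6, WT 8, KI 5, KI 6 and KI 8.

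Between the KO and the KI-labelled libraries, 5 genes of the Notch pathway rose and 5 fell (25% each, against 27.0% each of all genes). Those that fell included Notch4, which had 2.19 ± 0.937 CPM in the KI-labelled libraries (SD, n = 4) and passed the filter through them. Nrarp was higher by 2.34 (SE 0.21, adjusted p = 2.64e-07, edgeR), Notch1 by 1.44 (SE 0.13, adjusted p = 2.41e-07) and Rfng by 1.04 (SE 0.17, adjusted p = 1.18e-04), and Maml2 was lower, at -0.99 (SE 0.19, adjusted p = 3.76e-04).

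A list of 30 genes was mostly of proteins that anchor keratin filaments and of other intermediate filaments. It also held Krtcap2 and Krtcap3, which are of neither kind and were not called in any comparison. In the KO against the WT 21 passed the filter, of which 10 rose and 2 fell (47.6% and 9.52%, against 26.7% and 28.4% of all genes tested). The median was 0.59 (all genes: -0.03), and library totals gave 12 higher and 0 lower. Among those that rose, Prph passed the filter only through the KO, with a mean of 1.46 CPM there and 0.0236 CPM in the WT. It could hardly be called in the other direction, and the share above includes it. Prph lies below the level of the naming rule and is named for this reason only. Those that fell, named after their values were seen, were Dsg2 by 0.57 (SE 0.17, adjusted p = 0.0127, edgeR) and Pkp2 by 0.53 (SE 0.20, adjusted p = 0.0394). Lmna, the nuclear lamin A, rose from 178 ± 9.88 CPM (SD, n = 3) to 430.2 ± 25.3 (SD, n = 4; log2 fold change 1.26, SE 0.12, adjusted p = 1.19e-05, edgeR), and Lmnb1, a B-type lamin, by 1.25 (SE 0.14, adjusted p = 3.06e-05). The linkers Plec and Eppk1, which bind keratin filaments, rose by 1.23 (SE 0.21, adjusted p = 5.60e-04) and 1.33 (SE 0.28, adjusted p = 0.00218). For the KI-labelled libraries against the WT 20 genes passed the filter, 4 rose and 1 fell (20% and 5%, against 21.2% and 21.0% of all genes), DESeq2 called 9, and leaving out WT 8 gave 8 calls. The risers included Lmnb1 (1.47, SE 0.14, adjusted p = 8.88e-06), Lmnb2 (1.10, SE 0.14, adjusted p = 8.66e-05) and Lmna (0.55, SE 0.14, adjusted p = 0.00633), and the gene that fell was Pkp2, a desmosomal plakophilin, at -1.19 (SE 0.18, adjusted p = 2.10e-04). Against the KI-labelled libraries, 10 of 21 rose in the KO and 1 fell (47.6% and 4.76%, against 27.0% each of all genes). Prph, with a mean of 0.0327 CPM in the KI-labelled libraries, was again among the risers and passed the filter only through the KO. Ppl, which links keratins to the cell cortex, rose by 1.22 (SE 0.11, adjusted p = 3.62e-07), Eppk1 by 1.00 (SE 0.18, adjusted p = 2.31e-04) and the desmosomal Dsp by 0.97 (SE 0.14, adjusted p = 2.91e-05). Pkp3, another plakophilin, rose by 1.01 (SE 0.36, adjusted p = 0.0266), but not without KO 7, KO 8, KI 6 or KI 8, where the adjusted p was 0.0572 to 0.0958.

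Partners and relatives of the non-keratin members, among them the integrins that bind osteopontin and the proteases and inhibitors that act on Epcam, passed the filter for 9 of 25 genes. Of these, 4 rose and 4 fell in the KO against the WT (44.4% each, against 26.7% and 28.4% of all genes tested). The integrin chains Itgb1 and Itgb3 fell by 1.24 (SE 0.17, adjusted p = 1.57e-04, edgeR) and 1.07 (SE 0.16, adjusted p = 2.35e-04). The protease St14 rose by 1.17 (SE 0.33, adjusted p = 0.0108), a call lost in 1 fit over all 11 libraries (adjusted p = 0.0714), and its inhibitor Spint2 by 0.84 (SE 0.14, adjusted p = 4.43e-04). The transcription factors Sox5 and Sox6, relatives of Sox9, also fell and are named after their values were seen, since they lie below the level of the naming rule. Sox5 had 46, 32 and 105 counts in the WT and 0 in all KO libraries (adjusted p = 1.21e-04), and Sox6 had 102, 112 and 125 in the WT and 0, 2, 8 and 2 in the KO (adjusted p = 2.60e-05). Both passed the filter only through the WT, so their calls could hardly go the other way. The KI-labelled libraries against the WT had 5 that fell and 0 that rose (55.6% and 0%, against 21.0% and 21.2% of all genes). However, library totals gave 1 lower and 1 higher, and 3 calls were left without WT 7. Among those that fell, St14 had 45, 21 and 49 counts in the WT and 2, 8, 0 and 12 in the KI-labelled libraries (adjusted p = 0.00674, edgeR). It passed the filter here only through the WT, so it could hardly be called in the other direction, and the share above includes it. Itgb3 fell by 0.79 (SE 0.17, adjusted p = 0.00261), Spint2 by 0.50 (SE 0.14, adjusted p = 0.0124), Itgav, another osteopontin receptor chain, by 0.46 (SE 0.15, adjusted p = 0.0254), and Sox6 by 0.87 (SE 0.27, adjusted p = 0.0199), and each of these 4 calls was lost with library totals. Leaving out WT 7, KI 5 or KI 6 also ended the call of Itgav (adjusted p = 0.08 to 0.0865), and leaving out WT 7 or KI 7 that of Sox6 (adjusted p = 0.0509 to 0.0541). Between the KO and the KI-labelled libraries 3 rose and 3 fell (33.3% each, against 27.0% each of all genes), and library totals gave 5 and 3. Sox5 (85, 108, 152 and 63 counts in the KI-labelled libraries, adjusted p = 6.47e-07) and Sox6 (124, 84, 84 and 61 counts, adjusted p = 1.11e-05) were again lower in the KO. Here both passed the filter only through the KI-labelled libraries. St14 was higher, with 101, 135, 129 and 142 counts in the KO against 2, 8, 0 and 12 (adjusted p = 8.80e-06), and passed the filter here only through the KO. Spint2 differed by 1.37 (SE 0.09, adjusted p = 7.74e-09), Itgb5 by 0.94 (SE 0.08, adjusted p = 1.36e-07) and Itgb1 by -1.22 (SE 0.10, adjusted p = 9.69e-08).

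**Figure D4:**
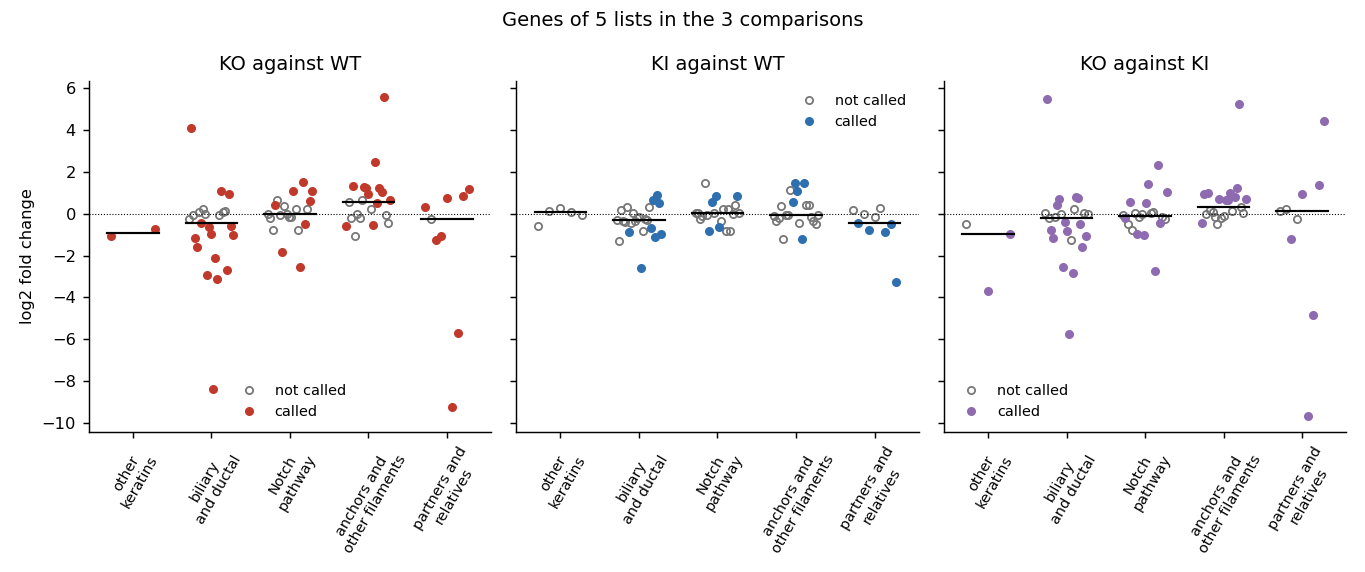
Log2 fold change of each tested gene of 5 lists in the KO against the WT, the KI-labelled libraries against the WT and the KO against the KI-labelled libraries, filled where the adjusted p was under 0.05 and open where it was not, with a black bar at the median of each list. For the KO against the WT the median is -0.45 for the bile duct genes and 0.59 for the anchors and other filaments, while for the KI-labelled libraries against the WT the medians lie between -0.46 and 0.07.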

How the data were processed

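Libraries of AML12 cells were grouped by their labels into 4 KO, 3 WT and 4 KI. The authors deposited a table of raw read counts per gene. Their processing notes name HISAT2, TopHat2, Bowtie2 and StringTie, while the genome build is not given in the sources used here. Of 26472 lines, 26462 were used (23502 of annotated genes and 2960 newly assembled), and 10 with broken fields were left out. For 1131 names the table has several entries, and their counts were added up. Damaged columns of FPKM and the authors' own fold changes and p-values were not used. Software was edgeR 4.0.16 and DESeq2 1.42.0 in R 4.3.3, with figures by matplotlib 3.10.9 in Python 3.11.15.

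In fits of 2 groups, genes that passed filterByExpr were scaled by TMM and tested with the robust quasi-likelihood test (prior count 2, Benjamini-Hochberg adjusted p under 0.05). The SE is the absolute log2 fold change divided by the square root of F. Levels were scaled by TMM over the 11 libraries. Coding lengths and chromosomes came from GENCODE M21, matched by name. Totals were 29840366 to 38422243 counts per library, and a floor of 3 counts covers counting error only. The test was tested on simulated counts. No pair of libraries agreed within counting noise.

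The 10 genes and the lists were chosen with earlier results of these data known. Named are the 10 genes, Txndc5, the markers, up to 4 called genes with the largest absolute change per list and comparison among those with a mean log2 CPM of at least 1, and the 3 genes closest to each member with at least 10 counts in at least 3 libraries. Alternatives were DESeq2, its size factors, library totals, no filter, a fit of all libraries, a replicate block, leaving out the 2 largest new entries and leaving out each library. Means without KI 8 and marker sums without Alb were added after seeing the data. Results of some listed genes are not reported here.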

Additional observations from a re-analysis of the deposited data

Results flagged for a closer look

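In groups of 4 libraries, a library was marked where its gap to the nearest other, divided by the range of the group, was above the 95% critical value of Dixon's ratio. Of 93 groups looked at, 6 were marked, where chance gives 4.7, and 3 of these were KI 8. Krt19 was marked in the KI-labelled libraries (0.932), as KI 8 had 565 CPM and the others 799.7 to 817 CPM. The ratio of Krt8 to Krt18 per kb was marked there (0.904), with 3.07 in KI 8 and 1.74 to 1.87 in the others, and so was the ratio of type II to type I keratins (0.847), with 1.89 against 1.15 to 1.26. Dsp was marked for KI 7 (0.955), at 80.1 CPM against 56.5 to 57.5 CPM. In the KO, Clu was marked for KO 6 (0.929), at 530.2 CPM against 583 to 588 CPM, and Jag2 for KO 5 (0.893), at 10 CPM against 11.6 to 11.8 CPM.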

How the results depend on the processing

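Of the counts of calls under all alternatives, 236 stayed within 1.5 times the value reported and 22 did not. In the KO against the WT, the other keratins called were 2, with 0 by library totals, 4 with no filter on low counts, 5 in 1 fit over all 11 libraries and 1 to 4 on leaving out each library, and the Notch genes called were 8, with 4 to 9 when each library was left out. In the KI-labelled libraries against the WT, the other keratins called were 1 by library totals and 0 to 1 when each library was left out. The Notch genes called there were 5, with 8 in 1 fit over all 11 libraries, 3 with the replicate block and 3 to 6 when each library was left out. The anchors and other filaments called were 5, with 9 by DESeq2 and 4 to 8 when each library was left out, and the partners and relatives called were 5, with 2 by library totals and 3 to 5 when each library was left out. In the KO against the KI-labelled libraries, the other keratins called were 2, with 4 with no filter and 4 in 1 fit over all 11 libraries. The causes were not tested. Of the log2 fold changes of the members under all alternatives, 329 moved by less than the spread between replicates and 15 by more, all of them with library totals. The 4 genes far lower in the KO against the WT stayed so, with -2.99 for Krt7, -1.32 for Krt20, -2.94 for Spp1 and -6.22 for Dcdc2a as their smallest differences.

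Libraries with the same replicate number did not vary together (8 pairs, correlations across genes from -0.19 to 0.21, 1 of them over 0.1), and 0 of the 8 KO and KI-labelled libraries correlated best with their own number in the other group. The replicate block moved the count of calls over all genes from 7364 to 8183 in the KO against the WT, from 5722 to 4891 for the KI-labelled libraries against the WT, and from 7171 to 6453 between the KO and the KI-labelled libraries. With it Maml3 (adjusted p = 0.083) and Itgav (adjusted p = 0.0586) were not called for the KI-labelled libraries against the WT. Counting the table entry with the most counts alone was not run, since each member has 1 entry. Depth limits Krt23 and Epcam, which lie near or under the floor.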
